A study of Mus musculus with 30 samples.

Results

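Collagens are a gene family whose protein chains assemble, 3 at a time, into the helical proteins of the extracellular matrix. The chains described here are the genes whose symbol has the form Col, a number, the letter a and a number, taken from the first column of all 9 deposited expression tables. This rule, which uses no expression value, found 44 genes of the 24421 in the tables. Of these, 42 reached at least 1 RPM (reads scaled to a library of 1000000) in at least 3 of the 30 libraries and were tested. Col17a1 and Col6a6 did not, and their levels are given without a test.

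The study profiled mouse glioblastoma, a malignant brain tumour, by RNA sequencing of polyadenylated RNA from bulk tissue taken at postnatal day 70. Tumours came from the cortex and carried either mCherry, a red fluorescent protein, with the EGFR variant given as not applicable (3 libraries), wild-type EGFR (3), or 1 of 6 EGFR variants, each named by its amino acid change: A289I (5), A289V (4), R108G (3), R108K (4), R222C (3) and T263P (3). EGFR is the epidermal growth factor receptor, a growth factor receptor that is often altered in glioblastoma. Normal cortex of the same age, labelled wild type, gave 2 libraries. The strain, the way the tumours were started, the promoter that drives each construct and any alteration that all tumours share are not given in the sources used here. The series text speaks of 3 to 5 mice for a variant and does not tie libraries to mice, so the p-values measure only the spread between these samples. The comparisons ask how collagen transcripts in tumours differed from cortex and whether they differed with the receptor that a tumour carries.

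Fibrillar collagens (such as types I, II, III, V and XI) form the fibrils of connective tissue and cartilage, and fibril-associated collagens (such as types IX, XII and XVI) coat them. Type IV collagen is the network of the basement membrane, which in the brain lies around blood vessels and below the pia, and type VI forms beaded microfilaments. Multiplexins (types XV and XVIII) sit in basement membranes, and the transmembrane collagens stay anchored in the cell surface. In normal brain most collagen is made by the cells of the vessels and the meninges, while astrocytes, oligodendrocyte precursors and neurons each make some chains of their own.

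Libraries held 2784129 to 24475215 reads, so that 1 read was worth 0.0387 to 0.383 RPM. A library without a read for a gene allows up to 3 reads, which is 0.116 to 1.15 RPM depending on the library. Egfr, which checks the labels, was at 11.3 and 12.7 RPM in cortex, 22.1 to 35.4 RPM in mCherry tumours and 98.4 to 2790 RPM in 22 of the 25 receptor tumours. In the libraries labelled R108G 1, R108G 3 and T263P 2 it was 17.5, 52.3 and 52.1 RPM. Met, another growth factor receptor, exceeded 1000 RPM in the libraries labelled EGFR wild type 1 (4610), EGFR wild type 2 (3853) and mCherry 2 (6283). Library numbers in the titles fall into 3 ranges (below 20, 20 to 37 and above 300), and the ribosomal transcript Rn45s took 2.47% to 4.57% of reads in the tumours of the middle range against 0.117% to 1.32% in the other tumours. Every R222C, T263P and cortex library was in the middle range, and every A289I and R108G library was above 300. No pair of replicates agreed within sampling noise. In bulk tissue, fewer cells of a type and less RNA per cell cannot be told apart. Summed over marker lists, the 10 neuron genes were at 9863 to 10205 RPM in cortex and 144 to 8901 in tumours, the 8 genes of oligodendrocyte precursors at 522 to 539 and 1378 to 6453, the 10 endothelial genes at 202 to 258 and 91.5 to 393.5, and the 9 fibroblast and meningeal genes at 312 to 425 and 21.8 to 2815 (median 126). No listed marker was at 0 throughout any group. The part that these shifts have in the collagen values below was not tested.

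Tumours held more collagen transcript than cortex, and a different mix of chains. Divided by the length of each gene's longest coding transcript, the 44 chains summed to 89.3 and 91.99 RPM per kb in the cortex libraries and to 177 to 1924 RPM per kb in the tumours. Every tumour was above both cortex libraries. Fibril-associated chains made up 28.4% of this sum at the median of the cortex libraries and 37.7% at the median of the 28 tumours. Tumours spanned 17.7% to 59.8%, on both sides of cortex. The mCherry tumours, at 23.2% to 26.1%, were all below both cortex libraries. With wild-type EGFR the median was 19.5% and the maximum 36.99%. The median of each variant group was above cortex, at 30.5% to 42.1%. Between the cortex and tumour medians the multiplexins went from 2.27% to 8.50%, with a maximum of 43.4% in the library labelled EGFR wild type 2. The transmembrane chains went from 9.98% to 0.64%. The chain with the highest level per kb was Col9a3 in 8 tumours, Col16a1, Col18a1 and Col2a1 in 4 each, and Col9a2 in 3. Col4a1 led in 2 tumours, and Col11a1, Col11a2 and Col9a1 in 1 each. In cortex the leading chain was Col1a2 in 1 library and Col9a2 in the other. On the same per-kb scale the median tumour level was 41.2 for Col16a1, 40.7 for Col9a3 and 39.7 for Col18a1, against 3.30, 7.49 and 1.37 in cortex.

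**Figure D1:**
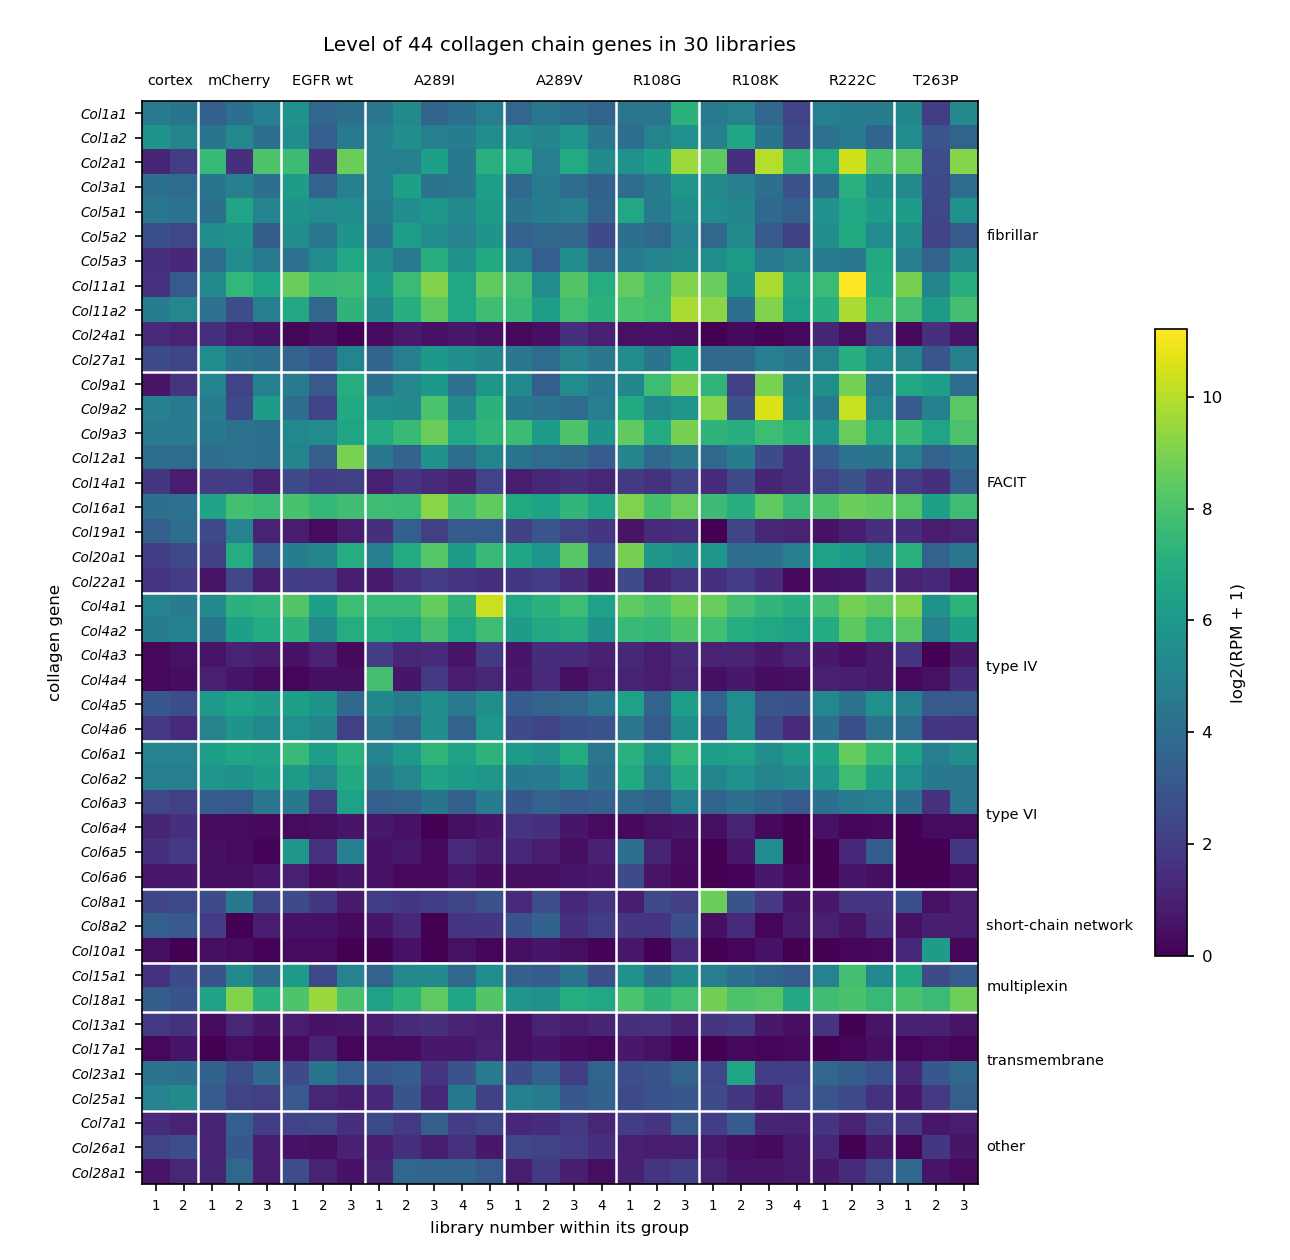
Heat map of the 44 collagen genes (rows, ordered by family) in the 30 libraries (columns, ordered by group), coloured by level on the log2(RPM + 1) scale from dark (0) to bright. The cortex columns are dark for Col18a1 and Col11a1, which were brighter in every tumour, and a single bright cell in a dark row marks a chain high in 1 tumour, such as Col4a4 in A289I 1.

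Against normal cortex, the mean of the 8 tumour groups was higher for 16 collagen genes and lower for 6. The test was limma on log2(RPM + 1) across all 15824 genes past the level filter, with Benjamini-Hochberg adjustment and a threshold of 0.05, and differences below are on that log2 scale. The 22 genes are 52.4% of the 42 tested, beside 47.4% of all genes tested, of which 22.9% were higher and 24.5% lower. The median difference was 0.78 for the collagen genes and 0.035 for all genes. Fibrillar chains rose in 5 of 11, fibril-associated chains in 4 of 9 with 1 fall, type IV chains in 4 of 6, multiplexins in 2 of 2 and type VI chains in 1 of 5 with 1 fall. No transmembrane, short-chain or other collagen rose, and 2 of 3, 1 of 3 and 1 of 3 of these fell. In all 28 tumours Col11a1, Col16a1, Col18a1, Col27a1, Col4a1, Col5a3 and Col9a1 were above both cortex libraries, and Col25a1 was below both. The share of all genes that lay apart in this way was not computed, so this list has no background beside it. Only 2 cortex libraries carry this comparison: without cortex 1 it called 12 collagen genes and without cortex 2 it called 9. With a term for the 3 ranges of library numbers it called 13, namely 10 higher (Col11a1, Col18a1, Col9a1, Col5a3, Col16a1, Col20a1, Col4a1, Col27a1, Col9a3 and Col5a2) and 3 lower (Col25a1, Col8a2 and Col6a4).

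**Figure D2:**
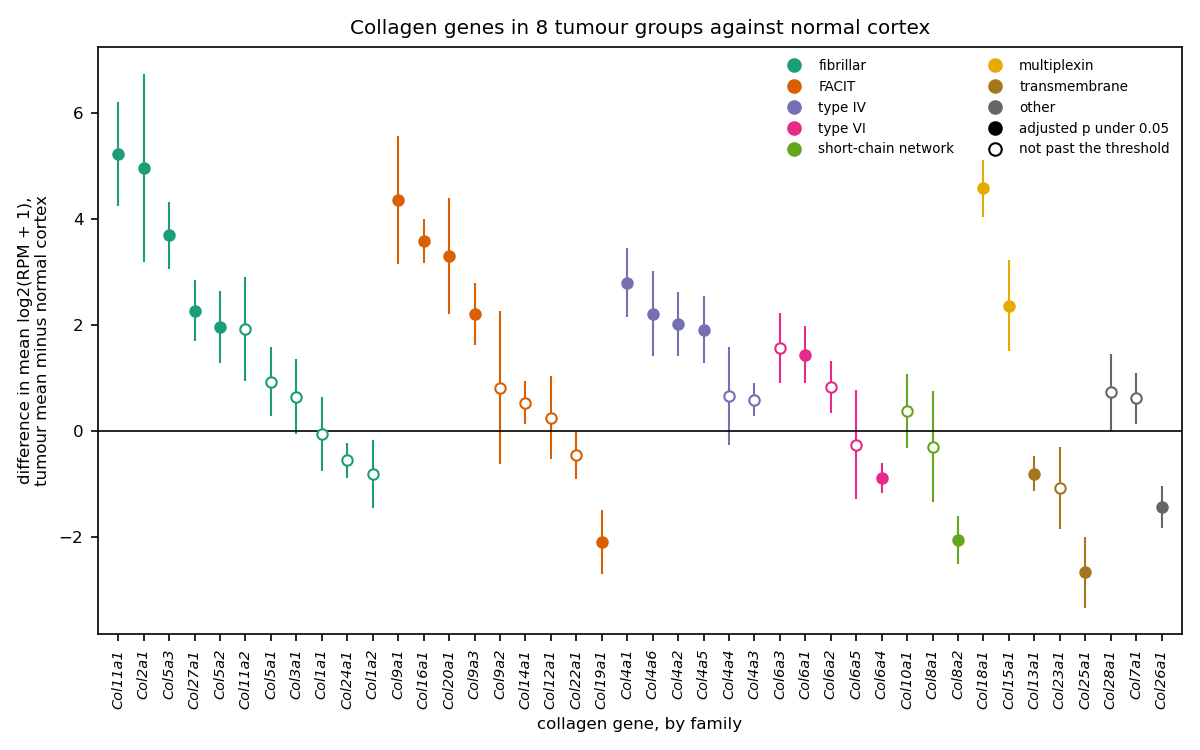
Difference between the mean of the 8 tumour groups and normal cortex for the 42 tested collagen genes, as log2 of RPM + 1 with bars of 1 standard error, ordered by family; filled points have an adjusted p under 0.05. The largest rises are Col11a1 (5.22), Col2a1 (4.96) and Col18a1 (4.57), and the largest fall is Col25a1 (-2.65).

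Among the fibrillar chains, those of cartilage fibrils stood highest. Col11a1, a chain of type XI collagen that nucleates cartilage fibrils (chromosome 3, 114030540 to 114220718, plus strand, mm10), was at 2.06 and 8.06 RPM in cortex and at 33.4 to 2365 RPM in tumours, with a median of 200.2. No tumour overlapped the cortex range, and the lowest was the library labelled T263P 2. The difference was 5.22 ± 0.97 (SE; limma, adjusted p = 0.000124). Col2a1, the type II chain that makes up most cartilage collagen (chromosome 15, 97975602 to 98004695, minus strand), was at 1.204 and 3.11 RPM in cortex and at 1.92 to 1345 RPM in tumours, with a median of 123. Here the groups overlapped: mCherry 2, EGFR wild type 2 and R108K 2 were at 1.92, 2.04 and 1.94 RPM, within the cortex range, and all other tumours were at 5.18 RPM or more. The difference was 4.96 ± 1.77 (adjusted p = 0.0233). The partner of Col11a1, Col11a2, was at 26.1 and 35.9 RPM in cortex and 5.32 to 894 RPM in tumours (median 151), and its difference of 1.92 ± 0.98 did not pass (adjusted p = 0.110).

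Type V chains regulate fibril width, and 2 of the 3 rose. Col5a3 (chromosome 9, 20770050 to 20815067, minus strand) was at 1.89 and 1.41 RPM in cortex and 9.04 to 133 RPM in tumours, with a median of 31.2. Every tumour was above cortex, and the difference was 3.69 ± 0.63 (limma, adjusted p = 4.93e-05). Col5a2 rose by 1.96 ± 0.68 (adjusted p = 0.0194), from 5.67 and 4.39 RPM to a tumour median of 25.4. Col27a1, a fibrillar chain of cartilage, rose by 2.27 ± 0.57 (adjusted p = 0.00225), with tumours at 6.91 to 129 RPM against 4.81 and 4.10 in cortex. The chains of the common connective-tissue collagens I and III did not pass the test. Col1a1 was at 22.7 and 19.2 RPM in cortex and 3.06 to 146 RPM in tumours (difference -0.06, adjusted p = 0.955). The other type I chain, Col1a2, differed by -0.80 (adjusted p = 0.314) and Col3a1, the type III chain, by 0.65 (adjusted p = 0.466). Tumours lay on both sides of the cortex libraries for all of these. The differences of Col5a1 (0.93) and Col24a1 (-0.55) also did not pass.

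The fibril-associated group holds the 3 chains of type IX collagen, which decorates type II fibrils. Col9a1 (chromosome 1, 24177610 to 24252684, plus strand) was at 0.516 and 2.26 RPM in cortex and 3.42 to 508 RPM in tumours, with a median of 35.3. All tumours were above cortex, the nearest being R108K 2, and the difference was 4.35 ± 1.204 (limma, adjusted p = 0.00455). Col9a3 rose by 2.21 ± 0.58 (adjusted p = 0.00298), although the mCherry tumours stayed at the cortex level. Col9a2 ranged from 3.71 to 1588 RPM in tumours around cortex values of 28.7 and 23.9 RPM, and its difference of 0.82 ± 1.44 did not pass (adjusted p = 0.662). Col16a1 (chromosome 4, 130047840 to 130099283, plus strand), a minor fibril-associated collagen, was at 16.5 and 17.8 RPM in cortex and 80.3 to 602 RPM in tumours, with a median of 214. No tumour overlapped cortex, and the difference was 3.58 ± 0.41 (adjusted p = 3.33e-07). Col20a1 rose by 3.30 ± 1.09 (adjusted p = 0.0153), with mCherry 1 at 3.40 RPM inside the cortex range of 3.27 to 4.67 and the library labelled R108G 1 at 476 RPM.

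Col19a1, a minor fibril-associated chain made by some cortical neurons, fell. It was at 9.63 and 15.1 RPM in cortex and at 0 to 29.96 RPM in tumours, with a median of 1.81, and its difference was -2.08 ± 0.59 (limma, adjusted p = 0.00568). The groups overlapped through mCherry 2 at 29.96 RPM and A289I 2 at 10.3 RPM. The remaining chains of the group, Col12a1 (0.26), Col14a1 (0.54) and Col22a1 (-0.45), did not pass.

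Type IV chains are encoded as 3 pairs of neighbouring genes that are read in opposite directions, and the pairs differed widely in level. Col4a1 and Col4a2, the chains of the vessel-wall basement membrane, start on chromosome 8 at 11312826 (minus strand) and 11312805 (plus strand), so that their annotated ends overlap by 22 bases. Col4a4 and Col4a3 start on chromosome 1 at 82586849 (minus) and 82586921 (plus), with 71 bases between them. Col4a6 and Col4a5 start on chromosome X at 141474076 (minus) and 141475385 (plus), with 1308 bases between them. Col4a5 and Col4a6 moved together in these tumours, as did Col4a1 and Col4a2, whose sequence is not shown (values below). Shown are the sequence between the close pair and the stretches just before the starts of the wide pair, whose part in the levels was not tested. They come from the RefSeq promoter table (GRCm38.p6), read 5′ to 3′ on the strand of the gene named first. Capitals mark a CCAAT box (CCAAT, or ATTGG on the other strand) or a GC box (GGGCGG, or CCGCCC on the other strand), and the short stretch holds neither string.
Col4a4 to Col4a3, chr1:82586850-82586920, minus strand: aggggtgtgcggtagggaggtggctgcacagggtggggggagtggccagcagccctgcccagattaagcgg
Col4a6 upstream, chrX:141474077-141474326, minus strand: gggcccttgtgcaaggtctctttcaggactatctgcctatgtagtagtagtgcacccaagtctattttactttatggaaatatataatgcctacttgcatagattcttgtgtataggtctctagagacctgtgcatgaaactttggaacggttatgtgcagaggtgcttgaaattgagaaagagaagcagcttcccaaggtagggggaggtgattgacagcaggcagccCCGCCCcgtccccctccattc
Col4a5 upstream, chrX:141475169-141475384, plus strand: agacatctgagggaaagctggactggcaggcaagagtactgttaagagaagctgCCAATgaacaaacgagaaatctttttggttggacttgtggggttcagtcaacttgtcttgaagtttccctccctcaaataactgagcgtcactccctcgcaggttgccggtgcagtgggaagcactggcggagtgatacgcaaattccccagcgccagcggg

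Of the 44 collagen genes, 35 had an entry in the RefSeq promoter table, with 38 entries in all. In the 250 bases before each start, a CCAAT string on either strand was in 13 of the 38 windows (34.2%) and in 33.8% of all 32851 windows. A GC box was in 22 of 38 (57.9%) and in 32.7% of all windows. These are matches of letters and not mapped binding sites.

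Col4a1 was at 31.5 and 24.8 RPM in cortex and 40.7 to 1288 RPM in tumours, with a median of 202. All tumours were above cortex, and the difference was 2.7997 ± 0.65 (limma, adjusted p = 0.00109). Col4a2 rose with it by 2.01 ± 0.60 (adjusted p = 0.00799), from 26.1 and 29.1 RPM to a tumour median of 120.2. The lowest tumour for both was mCherry 1, where Col4a2 was at 19.6 RPM, below cortex. Of the 10 endothelial markers, 2 were higher and 2 lower in tumours. The X-linked pair, whose chains sit in the basement membranes of kidney and smooth muscle, started lower. Col4a5 rose by 1.91 ± 0.62 (adjusted p = 0.0139), from 7.22 and 5.52 RPM to a tumour median of 26.7, and Col4a6 by 2.22 ± 0.81 (adjusted p = 0.0263), from 2.58 and 1.56 RPM to 13.1. In R108K 4 these chains were at 6.22 and 1.51 RPM, within and just below the cortex range. The pair known from kidney filters, Col4a3 and Col4a4, stayed near the detection limit, with tumour medians of 1.07 and 0.726 RPM, and neither passed (differences 0.60 and 0.66).

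Among type VI chains Col6a1 (chromosome 10, 76708792 to 76726168, minus strand) rose by 1.45 ± 0.54 (limma, adjusted p = 0.0307). It was at 31.3 and 30.7 RPM in cortex and 20.4 to 375 RPM in tumours, with a median of 84.9. The 2 tumours below cortex were A289V 4 at 20.4 RPM and the library labelled T263P 2 at 27.1 RPM. Its partner chains Col6a2 (0.83 ± 0.49, adjusted p = 0.170) and Col6a3 (1.57 ± 0.65, adjusted p = 0.0506) did not pass. Of the chains that can replace Col6a3 in the trimer, Col6a4 fell by 0.88 on the log2 scale (SE 0.28, adjusted p = 0.0108), from 1.204 and 1.98 RPM to a tumour median of 0.296, with A289V 1 at 2.31 RPM above both cortex libraries. Col6a5 ranged from 0 to 60.8 RPM in tumours around 1.89 and 2.69 RPM in cortex and did not pass (difference -0.25).

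Both multiplexins rose. Col18a1 (chromosome 10, 77052178 to 77166548, minus strand), whose cleaved end is the vessel-growth inhibitor endostatin, was at 8.94 and 6.37 RPM in cortex and 53.5 to 729.8 RPM in tumours, with a median of 222.3. No tumour overlapped cortex, and the difference was 4.57 ± 0.54 (limma, adjusted p = 5.01e-07). The highest tumours were EGFR wild type 2 (729.8 RPM) and mCherry 2 (538 RPM), both among the 3 libraries with Met above 1000 RPM. The third of these, EGFR wild type 1, was lower than several tumours with less Met, among them R108K 1 and T263P 3. A relation between Col18a1 and Met was not tested. Col15a1, which joins basement membranes to the fibrils below, rose by 2.36 ± 0.85 (adjusted p = 0.0251). Its tumour values ran from 4.79 to 234 RPM, and EGFR wild type 2 and T263P 2 (4.79 and 4.92 RPM) lay within the cortex range of 2.06 to 5.09.

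The 6 chains that fell came from 5 families. Col25a1 (chromosome 3, 130131501 to 130599877, plus strand), a transmembrane collagen of neurons whose shed part binds amyloid, was at 30.8 and 37.8 RPM in cortex and 0.682 to 29.5 RPM in tumours, with a median of 4.64. All tumours were below cortex, and the highest were A289V 1 (29.5 RPM), A289V 2 (24.6 RPM) and A289I 4 (22.1 RPM). The difference was -2.65 ± 0.67 (limma, adjusted p = 0.00220). The other transmembrane chains were Col13a1, which fell by 0.80 on the log2 scale (SE 0.33, adjusted p = 0.0498) and lost its call in 33 of the alternatives, edgeR and DESeq2 among them, keeping it in 6, and Col23a1 (-1.07 ± 0.77, adjusted p = 0.259). Col17a1, a chain of the hemidesmosomes of skin, was at 0.172 and 0.566 RPM in cortex and 0 to 1.08 RPM in tumours.

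Col8a2 (chromosome 4, 126286793 to 126314330, plus strand), a short-chain network collagen, was at 9.63 and 7.64 RPM in cortex and 0 to 10.2 RPM in tumours, with a median of 0.947. The groups overlapped only through A289V 2 at 10.2 RPM, and the difference was -2.06 ± 0.45 (limma, adjusted p = 0.000627). The other chain of type VIII, Col8a1, and the chain of growth-plate cartilage, Col10a1, did not pass (-0.29 and 0.38). Col26a1 fell by 1.42 on the log2 scale (SE 0.40, adjusted p = 0.00503), from 3.95 and 5.52 RPM to a tumour median of 0.902, with mCherry 2 at 7.41 RPM above cortex. The anchoring-fibril chain Col7a1 (0.62) and Col28a1 (0.73) did not pass. All 10 neuron markers fell in this comparison, and the neuron sum was highest in the tumours A289V 1 and 2.

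The mCherry tumours alone already differed from cortex in 12 collagen genes, 8 higher and 4 lower, which is 28.6% of those tested beside 38.3% of all genes, with 17.8% higher and 20.5% lower (limma, adjusted p under 0.05). This comparison shares the cortex libraries with the preceding one. No mCherry library lies in the library-number range of the cortex libraries, so tissue and range cannot be told apart within these libraries. The range term used below rests on tumour groups that span ranges. Col18a1 was at 87.6, 538 and 143 RPM in the mCherry tumours and rose by 4.47 ± 0.67 (adjusted p = 2.61e-05). Col11a1, at 39.0, 169 and 94.1 RPM, rose by 4.04 ± 1.21 (adjusted p = 0.0110). The X-linked type IV pair rose too, Col4a5 by 3.36 ± 0.78 (adjusted p = 0.00170) and Col4a6 by 3.75 ± 1.01 (adjusted p = 0.00520). Col5a3 (3.33), Col16a1 (3.14), Col5a2 (2.26) and Col27a1 (2.18) also rose, and Col25a1 (-2.61), Col8a2 (-2.30), Col6a4 (-1.05) and Col13a1 (-1.03) fell. Col9a3 did not differ beyond its error (-0.30 ± 0.72, adjusted p = 0.770), and Col4a1 (1.81 ± 0.81) missed the threshold with an adjusted p of 0.0805. The comparison called 7 collagen genes without cortex 1, 6 without cortex 2 and 7 with the term for library-number range. The 5 lost with that term were Col4a6 (1.97, adjusted p = 0.224), Col4a5 (2.33, adjusted p = 0.0822), Col11a1 (3.97), Col5a2 (2.42) and Col13a1 (-1.33), so that the rise of the X-linked pair was smaller there while the other 3 differences were about as large.

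The mean of the 7 receptor groups differed from mCherry in a single collagen gene, Col9a3, which is 1 of 6 genes called in all, or 0.0379% of those tested. Col9a3 encodes the alpha 3 chain of type IX collagen and lies on chromosome 2 at 180597790 to 180622189 on the plus strand. It was at 22.7 and 22.9 RPM in cortex and at 21.3, 17.4 and 16.6 RPM in the mCherry tumours. With wild-type EGFR it was at 36.9, 41.0 and 92.5 RPM. With A289I it was at 115, 189, 418, 105 and 162 RPM, and with A289V at 206, 70.6, 274 and 54.6 RPM. The 25 receptor tumours were all above every mCherry and cortex library, and the lowest 2 of them were wild-type EGFR tumours. The R108G values were 356, 119 and 487 RPM and the R108K values 154, 129, 212 and 149 RPM. R222C tumours were at 57.6, 385 and 101 RPM and T263P tumours at 191, 92.6 and 270.1 RPM. The libraries labelled R108G 1, R108G 3 and T263P 2, whose Egfr was low, were at 356, 487 and 92.6 RPM and so lay with the other receptor tumours.

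The receptor mean of Col9a3 exceeded mCherry by 2.87 ± 0.48 on the log2 scale, or 7.31-fold (limma, adjusted p = 0.0175). This call depended on the 3 mCherry tumours: without mCherry 1, 2 or 3 the difference was 2.97, 2.84 or 2.802 and the adjusted p was 0.0584, 0.108 or 0.268. With the term for library-number range it was 2.78 (adjusted p = 0.176), and without the 3 libraries with high Met 2.95 (adjusted p = 0.0726). It held without the low-Egfr libraries (2.76, adjusted p = 0.0379). Within the range below 20, the mCherry tumours were at 17.4 to 21.3 RPM and the 5 receptor tumours at 36.9 to 206. Above 300, the single mCherry tumour was at 16.6 RPM and the 8 receptor tumours at 105 to 487. The middle range holds no mCherry tumour, and its 12 receptor tumours were at 54.6 to 385 RPM. The lack of overlap within these 2 ranges follows from the separation over all libraries given above and is no separate check. The share of all genes that lay apart in this way was not computed.

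By construct, Col9a3 rose against mCherry in 4 groups, each compared with the same 3 mCherry tumours. With R108G the difference was 3.83 ± 0.64 (limma, adjusted p = 0.0169), with A289I 3.17 ± 0.58 (adjusted p = 0.0225), with R108K 3.04 ± 0.60 (adjusted p = 0.0464) and with A289V 2.67 ± 0.60 (adjusted p = 0.0324). Of all genes, 0.0379%, 0.607%, 0.0695% and 4.91% were called in these comparisons, beside 1, 1, 1 and 2 collagen genes. With A289V, 3.23% of all genes were higher and 1.68% lower. Without the libraries labelled R108G 1 and 3 the R108G difference dropped to 2.64. That setting leaves R108G 2 alone in its group, so no call is given for it. The A289V call was lost without the neuron-rich A289V 1 and 2, where the difference was as large, at 2.68 (adjusted p = 0.591). All 4 calls were lost without mCherry 2, without mCherry 3 and with the term for library-number range, while the differences stayed near those above. With the range term they were 3.97 for R108G, 3.31 for A289I, 2.89 for R108K and 2.48 for A289V. Without mCherry 2 they were 3.8002, 3.14, 3.01 and 2.63, and without mCherry 3 they were 3.77, 3.11, 2.98 and 2.6004, in the same order. The A289I call was also lost without A289I 2 or 4, and the R108K call without mCherry 1 or R108K 1, 3 or 4. R108K called 3 collagen genes without R108K 2, and A289V called 4 without A289V 4. The A289V comparison called none without A289V 1 or 2 alone, and the R108G comparison none without R108G 1 or 3 alone.

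In the other 3 groups no collagen gene passed against mCherry under limma. With T263P the Col9a3 difference was 3.13 ± 0.64 (adjusted p = 0.244) and with R222C 2.78 ± 0.64 (adjusted p = 0.254), both within the range of the 4 that passed. DESeq2 on the recovered reads called Col9a3 in both (3.33, adjusted p = 0.000854, and 3.30, adjusted p = 0.000870). With wild-type EGFR it was 1.46 ± 0.64 (unadjusted p = 0.0325, adjusted p = 0.9995). In T263P, R222C and wild-type EGFR, 6, 8 and 5 collagen genes had an unadjusted p under 0.05, beside 878, 1124 and 428 of all 15824 genes. Of the collagen genes, edgeR called 0 in each, and DESeq2 called 3, 3 and 1. Of all genes, 0.00632%, 0% and 0% were called by limma. The smallest p-values after Col9a3 belonged to Col4a5 (-2.48) and Col4a6 (-2.87) with T263P and to Col11a2 (4.22) and Col19a1 (-1.83) with R222C. With wild-type EGFR they belonged to Col6a5 (3.82), Col19a1 (-2.15) and Col26a1 (-1.01).

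**Figure D3:**
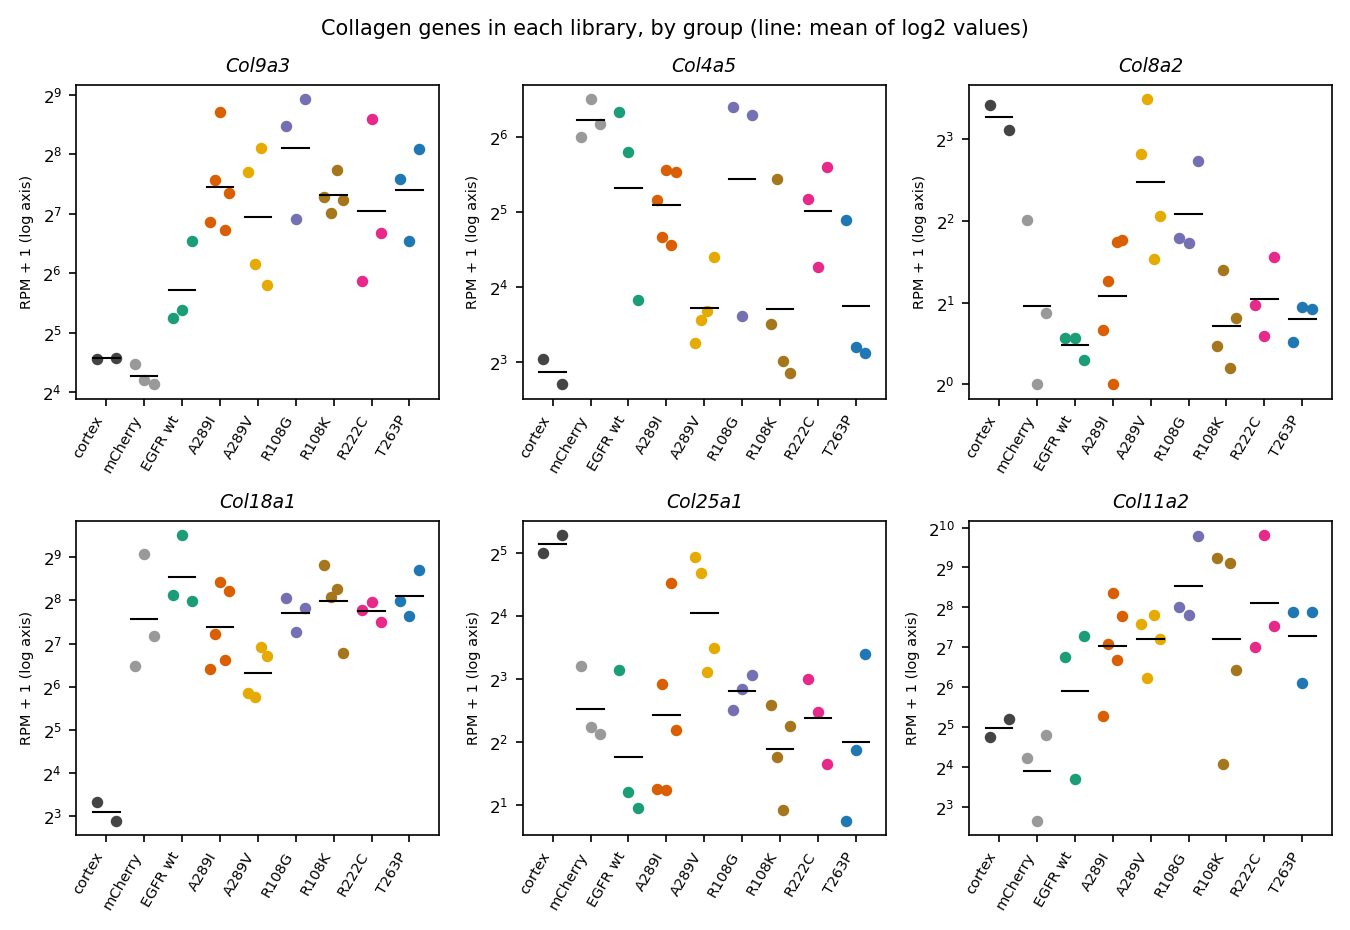
Levels of Col9a3, Col4a5, Col8a2, Col18a1, Col25a1 and Col11a2 in each library by group, as RPM + 1 on a log axis; points are libraries and lines are group means of log2 values. Col9a3 is at 16.6 to 21.3 RPM in mCherry tumours and above that in all 25 receptor tumours. The group means of Col8a2 and Col25a1 are highest in cortex, but the A289V 2 point of Col8a2 (10.2 RPM) lies above the cortex points.

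Col4a5 moved the other way. It lies on chromosome X at 141475385 to 141689234 and encodes the alpha 5 chain of type IV collagen. It was at 63.2, 90.5 and 71.1 RPM in the mCherry tumours and at 8.54, 10.8, 11.9 and 20.2 RPM with A289V. These groups did not overlap, and the difference was -2.51 ± 0.65 (limma, adjusted p = 0.0384). With R108K it was at 10.3, 42.5, 7.09 and 6.22 RPM, with T263P at 28.9, 8.24 and 7.74 RPM, and with R222C at 35.2, 18.4 and 47.9 RPM. Wild-type EGFR tumours were at 79.7, 54.8 and 13.3 RPM, A289I tumours at 34.8, 24.5, 46.2, 22.6 and 45.7 RPM, and R108G tumours at 83.7, 11.3 and 77.6 RPM. Of the receptor groups, wild-type EGFR and R108G had tumours within the mCherry range, and the other 5 lay wholly below it. In the middle range of library numbers, which holds no mCherry tumour, the 12 receptor tumours were at 6.22 to 47.9 RPM (median 12.6). Below 20 the 5 receptor tumours were at 8.54 to 79.7 RPM (median 42.5), against 63.2 and 90.5 for mCherry. Above 300 the 8 receptor tumours were at 11.3 to 83.7 RPM (median 40.2), against 71.1 for mCherry. Receptor and mCherry tumours overlapped in both. The R108K difference (-2.53 ± 0.65) had an adjusted p of 0.178, and the mean of the receptor groups (-1.65 ± 0.52) an adjusted p of 0.421. The A289V call was lost without A289V 1, A289V 2, mCherry 2 or mCherry 3, at differences of -2.35, -2.45, -2.36 and -2.53 that were near the reported value. With the term for library-number range it was lost at a smaller difference of -1.74 (adjusted p = 0.279).

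Col11a2 differed from mCherry by more than Col9a3 in the mean of the receptor groups and did not pass (3.43 ± 0.82, adjusted p = 0.247). It was at 18.0, 5.32 and 26.8 RPM in the mCherry tumours, and of the receptor tumours only EGFR wild type 2 (11.98 RPM) and R108K 2 (15.8 RPM) fell into that range. Across the 42 tested genes the median difference between receptor mean and mCherry was 0.18, against 0.003 for all genes. DESeq2 called 3 collagen genes in this comparison and edgeR 2.

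Among the 8 tumour groups, the F-test of limma called 3 collagen genes, 7.14% of those tested beside 10.3% of all genes. They were Col9a3 (adjusted p = 0.0102), Col8a2 (0.0322) and Col4a5 (0.0408). None was called without the tumours A289V 1 and 2. Leaving out single libraries gave 1 to 8 genes, with 1 left without A289V 1, A289V 2 or R108G 3, 8 without R108K 2, 6 without A289I 1 or mCherry 2, and 5 without R108G 2 or T263P 1.

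Against wild-type EGFR, A289V differed in 5 collagen genes, 11.9% of those tested beside 13.7% of all genes, of which 9.69% were higher and 3.96% lower. Col18a1 was at 57.1, 53.5, 121 and 104 RPM with A289V and at 276, 729.8 and 251 RPM with wild-type EGFR. The groups did not overlap, and the A289V mean was 0.215 times the wild-type mean (difference -2.22 ± 0.56; limma, adjusted p = 0.0144). Col8a2, at 6.05, 10.2, 1.89 and 3.17 RPM against 0.481, 0.479 and 0.234 RPM, was higher by 1.995 ± 0.47 (adjusted p = 0.0114). Col26a1 (1.37 ± 0.42, adjusted p = 0.0298) was also higher without overlap, and Col25a1 (2.28 ± 0.70, adjusted p = 0.0307) with overlap. Col6a5, at 1.42, 0.786, 0.354 and 1.06 RPM against 60.8, 2.04 and 26.9 RPM, was lower (-3.22 ± 1.06, adjusted p = 0.0446). The neuron marker sum was 2404 to 8901 RPM in A289V tumours and 191 to 1222 RPM in wild-type EGFR tumours. Without the A289V tumours 1 and 2, which leaves 2 in the group, limma called no collagen gene. The differences were then -3.38 for Col6a5, -1.71 for Col18a1, 1.53 for Col25a1, 1.32 for Col8a2 and 1.07 for Col26a1. The count was 1 without A289V 1 alone, 0 without A289V 2 or EGFR wild type 2, and 3 without EGFR wild type 1.

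The other 5 variants showed no collagen gene past the threshold against wild-type EGFR under limma. All these comparisons share the 3 wild-type EGFR tumours. Unadjusted p-values were under 0.05 for 7 collagen genes with A289I, 4 with R108G, 5 with R108K, 4 with R222C and 7 with T263P. Over all 15824 genes they were under 0.05 for 2020, 1347, 861, 796 and 622, in the same order. EdgeR called 0 collagen genes in each comparison, and DESeq2 2, 1, 1, 1 and 2. Of all genes, 0.335% were called with A289I and 0% with the other 4. Col9a3 was among the 3 smallest p-values in 4 of the 5: it differed by 2.38 ± 0.64 with R108G (adjusted p = 0.364), 1.72 ± 0.58 with A289I (0.202), 1.68 ± 0.64 with T263P (0.9997) and 1.59 ± 0.60 with R108K (0.871). Col6a5 was among them in 3, at -3.34 with A289I, -3.53 with T263P and -2.58 with R222C. The others were Col19a1 (2.001) with A289I, Col8a2 (1.60) and Col11a2 (2.63) with R108G, Col12a1 (-2.63) and Col4a5 (-1.62) with R108K, Col27a1 (1.98) and Col24a1 (1.05) with R222C, and Col10a1 (2.34) with T263P.

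The substitutions at the same residue were also set against each other. No collagen gene and 0% of all genes passed between A289I and A289V. Unadjusted p-values were under 0.05 for 2872 of all 15824 genes and for 13 collagen genes (edgeR 0, DESeq2 2 collagen genes called). The smallest were Col16a1 (1.36 ± 0.37, adjusted p = 0.113), Col8a2 (-1.39 ± 0.41, adjusted p = 0.113) and Col5a2 (1.97 ± 0.62, adjusted p = 0.122). Without A289I 4, limma called 3 collagen genes. Between R108G and R108K, again 0% of all genes passed. Here 1569 of all 15824 genes and 2 collagen genes had an unadjusted p under 0.05 (edgeR and DESeq2 0 collagen genes called). The smallest were Col8a2 (1.36 ± 0.47), Col4a5 (1.73 ± 0.65) and Col1a1 (1.45 ± 0.72), with adjusted p-values of 0.378, 0.419 and 0.515.

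Some chains were far higher in a single tumour than in any other. In 5 genes the highest tumour was at least 5 RPM and at least 5 times the second. Intervals are exact Poisson 95% intervals of the read count and cover counting error only. Col4a4 (chromosome 1, 82448423 to 82586849, minus strand) was at 239 RPM in A289I 1 (4450 reads, 232 to 246), and the next tumour, A289I 3, was at 2.73 RPM. Its close neighbour Col4a3 was at 3.06 RPM in A289I 1, the highest of the 28 tumours, so the 71 bases shown above separate a gene at 239 RPM from one at 3.06 RPM. Col10a1, the collagen of hypertrophic cartilage (chromosome 10, 34389981 to 34397085, plus strand), was at 69.9 RPM in the library labelled T263P 2 (526 reads, 64.1 to 76.1) and at 1.60 RPM or less in every other tumour. Col8a1 (chromosome 16, 57624258 to 57754737, minus strand) was at 418 RPM in R108K 1 (1090 reads, 393 to 443) and next at 21.5 RPM in mCherry 2. Its type VIII partner Col8a2 was at 0.383 RPM in R108K 1. Col12a1 (chromosome 9, 79598991 to 79718831, minus strand), a chain that links fibrils to their surroundings, was at 488 RPM in EGFR wild type 3 (6254 reads, 476 to 499.8) and next at 52.6 RPM in A289I 3. Col6a6 was at 5.15 RPM in the library labelled R108G 1 (103 reads, 4.20 to 6.24) and at 0.963 RPM or less elsewhere.

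**Figure D4:**
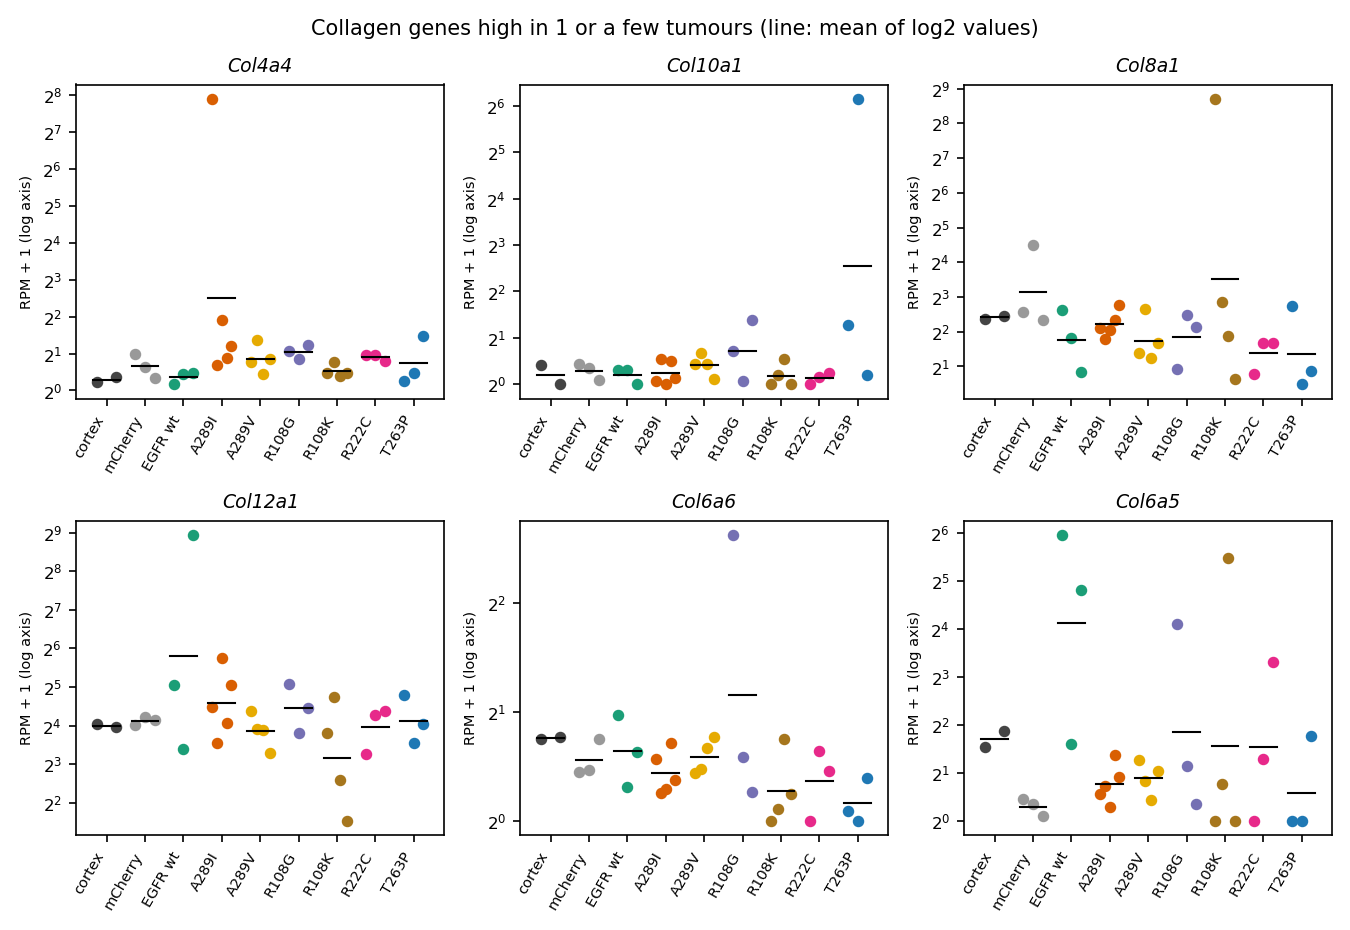
Levels of Col4a4, Col10a1, Col8a1, Col12a1, Col6a6 and Col6a5 in each library by group, as RPM + 1 on a log axis. The first 5 each have 1 tumour at least 5 times the next, and Col6a5 is high in tumours of several groups, at 60.8 RPM in EGFR wild type 1 and 43.3 RPM in R108K 3.

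Another tumour, R222C 2, was high for many chains together. It held the highest tumour level of 10 of the 42 tested chains, and the libraries next in this count held 3. In it Col11a1 was at 2365 RPM, Col2a1 at 1345 RPM, Col11a2 at 894 RPM and Col9a2, second of all tumours, at 1225 RPM. These are the chains of cartilage fibrils. Col6a1 (375 RPM), Col4a2 (333 RPM), Col15a1 (234 RPM), Col6a2 (213 RPM), Col3a1 (138 RPM), Col27a1 (129 RPM) and Col5a2 (113 RPM) were also highest there. The fibroblast and meningeal marker sum was 2815 RPM in this tumour against 21.8 to 529 RPM in the other 27. Most of it came from Mgp (2201 RPM) and Fmod (508 RPM), which cartilage also expresses, while Lum (72.5 RPM) and Dcn (14.6 RPM) contributed little. Col1a1 was at 25.6 RPM in R222C 2, close to the tumour median of 20.3.

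Levels of 14 gene pairs were compared over the 28 tumours, on the log2(RPM + 1) scale. The pairs were chains of the same protein, Col3a1 with Col1a1 as chains of different fibrillar collagens, and collagen chains with the cell markers Pecam1, Dcn or Sox10. Pairs that share a trimer differed in how closely they moved together. Col4a1 and Col4a2 had a Pearson r of 0.93 and a Spearman rho of 0.97, Col4a5 and Col4a6 0.93 and 0.91, and Col6a1 and Col6a2 0.91 and 0.92. Permutation tests were 2-sided, and for each of these p was 1e-05, the smallest that 100000 permutations can give, and 4.7e-05 for r after Benjamini-Hochberg adjustment over the 14 pairs. Leaving out the 2 tumours farthest from the median of the first gene gave r of 0.98, 0.92 and 0.87. Within the 3 library-number ranges (7, 12 and 9 tumours) r was 0.99, 0.98 and 0.74 for the first pair, 0.97, 0.93 and 0.77 for the second and 0.73, 0.95 and 0.91 for the third.

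The cartilage pairs were looser. For Col11a1 and Col11a2 r was 0.69 and rho 0.81 (permutation p = 6e-05 for r, adjusted 0.00014), 0.67 without the 2 farthest tumours, and 0.62, 0.94 and 0.91 within ranges. For Col9a1 and Col9a2 r was 0.66 and rho 0.52 (permutation p = 0.00012, adjusted 0.00024). Without the 2 farthest tumours r was 0.63, and within ranges it was 0.92, 0.62 and 0.05, so that the relation was not seen above 300. For Col9a2 and Col9a3 r was 0.51 and rho 0.50 (permutation p = 0.00614, adjusted 0.00781), with 0.45 without the 2 farthest and 0.45, 0.53 and 0.35 within ranges. The ratio of Col9a2 to Col9a3, in RPM per kb, spanned 0.0447 to 7.81 over tumours. That of Col6a1 to Col6a2 spanned 1.37 to 3.43, so these partners kept a far narrower ratio. The Col4a1 to Col4a2 ratio had a median of 1.68 and reached 5.97 in A289I 5, where Col4a1 was at 1288 RPM and Col4a2 at 210.3 RPM.

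Type I and III chains showed intermediate values. Col3a1 and Col1a1 had r of 0.72 and rho of 0.66 (permutation p = 3e-05, adjusted 8.4e-05), and 0.88, 0.71 and 0.61 within ranges. Col1a1 and Col1a2, which form a single trimer, had r of 0.56 and rho of 0.41 (permutation p = 0.00226, adjusted 0.00352), 0.44 without the 2 farthest tumours, and 0.58, 0.55 and 0.55 within ranges. Col5a1 and Col5a2 had r of 0.74 and rho of 0.69 (permutation p = 2e-05, adjusted 7e-05), 0.63 without the 2 farthest, and 0.36, 0.87 and 0.40 within ranges. Col4a3 and Col4a4, with r of 0.48 and rho of 0.27, rested on A289I 1 and T263P 2: without them r was 0.23. Col8a1 and Col8a2 (r = -0.14), Col1a1 and the fibroblast gene Dcn (r = 0.35) and Col9a3 and the oligodendrocyte-lineage gene Sox10 (r = 0.32) had permutation p-values of 0.466, 0.0720 and 0.0933. Col4a1 and the endothelial gene Pecam1 had r of 0.60 and rho of 0.55 (permutation p = 0.00097, adjusted 0.0017), 0.61 without the 2 farthest and 0.93, 0.66 and 0.12 within ranges, so the relation was not seen above 300.

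**Figure D5:**
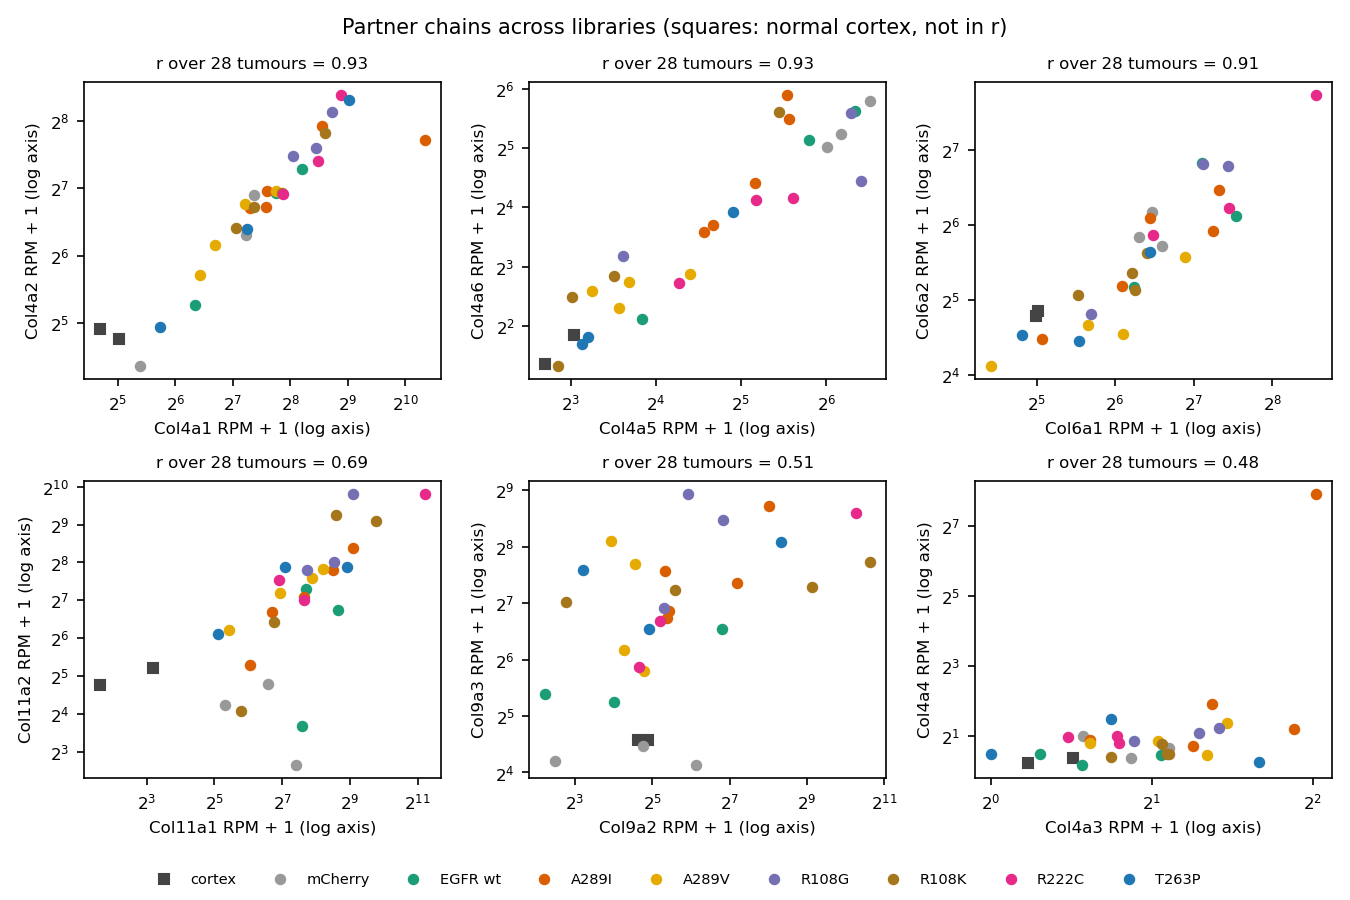
Levels of 6 pairs of partner chains in the 30 libraries, each axis as RPM + 1 on a log scale; circles are tumours coloured by group, squares are cortex, and r over each panel is for the 28 tumours. Col4a1 with Col4a2, Col4a5 with Col4a6 and Col6a1 with Col6a2 lie along narrow bands, Col9a2 with Col9a3 scatter widely, and A289I 1 stands alone for Col4a4.

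Genes that fold, cut, bind and degrade collagen were taken as lists. Of the 18 tested genes of collagen folding and modification, 10 were higher in the tumour mean than in cortex and none lower, with a median difference of 1.30. They included the lysyl hydroxylases Plod2 (2.98 ± 0.41, limma, adjusted p = 3.91e-06) and Plod3 (2.002 ± 0.33) and the folding enzymes P4hb (1.66 ± 0.30) and Ppib (1.67 ± 0.27). Of 9 collagen receptors 5 rose, among them Ddr2 (3.05 ± 0.32), Itgb1 (2.77 ± 0.34) and Ddr1 (1.31 ± 0.27), with a median of 1.78. Of 12 genes of procollagen cutting and crosslinking, Loxl2 (2.77 ± 0.76) and Loxl3 (1.70 ± 0.51) rose and Adamts2, which removes the N-terminal propeptide, fell (-1.70 ± 0.45). Of 10 genes of collagen degradation, Mmp14 (2.38 ± 0.59), Mmp2 (2.49 ± 0.92) and the inhibitor Timp3 (1.09 ± 0.34) rose and Fap fell (-1.25 ± 0.29). Of all genes, 22.9% were higher and 24.5% lower in this comparison, 47.4% in either direction. In the mean of the receptor groups against mCherry, none of these lists had a gene past the threshold under limma. Of their 49 genes 2, Colgalt2 and Loxl3, had an unadjusted p under 0.05 (limma, 0.00662 and 0.0127), beside 1058 of all 15824 genes. edgeR and DESeq2 called 0 of the 49.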

How the data were processed

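RNA was isolated from bulk tissue and sequenced as stranded polyadenylated libraries, per the labels' protocols. The submitters' processing notes name FastQC, STAR 2.5.0a, DESeq2 1.20.0 and the mm10 build, with no further settings. The deposited values are a signal per gene, named RPM by the authors, that behaved as read counts divided by a size factor: over 99.99% of values came out as whole reads (tolerance 0.05). The analysis plan had assumed RPM. Values were divided by 1 constant (10.3), which brought the mean library total to 1000000, and are called RPM here. Columns were matched to samples by their titles.

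The test was limma 3.58.1 (R 4.3.3; moderated with trend and robust options, 21 residual degrees of freedom) on log2(RPM + 1), with 9 group means over 30 libraries, 18 contrasts and an F-test, genes at 1 RPM in at least 3 libraries and Benjamini-Hochberg adjustment within each comparison at 0.05. It was also run on simulated counts with the same spread setting for every gene and no library-number ranges. That run does not copy the spread of these tumours, so no conclusion is drawn from it. edgeR 4.0.16 and DESeq2 1.42.0 on the recovered reads were alternatives. Gene positions and transcript lengths come from GENCODE M21. Where more than 12 collagen genes passed, the 6 largest rises and falls were described in full, and where none passed, the 3 smallest p-values. The members and gene lists were chosen with earlier results of these data known. Of the gene symbols, 27 read as dates and were kept as they stand.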

Additional observations from a re-analysis of the deposited data

Results flagged for a closer look

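Within the groups of 4 or 5 tumours, 5 collagen levels stood apart from the other tumours of their group by a gap that took up more of the group's range than Dixon's 95% critical value. The test covered 126 sets of values, 42 genes in 3 groups, and chance alone marks about 1 set in 20. Col4a4, a type IV chain, was at 239 RPM in A289I 1 and at 0.619 to 2.73 RPM in the other A289I tumours. Col23a1, a transmembrane chain, was at 92.9 RPM in R108K 2 and at 3.21 to 4.22 RPM in the other R108K tumours. Col6a5, a type VI chain, was at 43.3 RPM in R108K 3 and at 0 to 0.699 RPM in the others. Col28a1 was low in A289I 1, at 1.18 RPM against 8.06 to 12.04 RPM in the other A289I tumours. Col4a3 was at 0.679 RPM in R108K 3 against 1.09 to 1.15 RPM in the other R108K tumours, a gap of few reads.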

How the results depend on the processing

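Counts of collagen genes called are given here, and each cause was not tested unless the setting itself removes samples. For edgeR and DESeq2 no share over all genes was computed. Of the alternatives other than leaving out 1 library, 121 counts kept within 1.5 times of the value reported and 45 did not. These include the settings below that were chosen after seeing the data. Of the counts with 1 library left out, 152 did and 41 did not. A count of 0 that stayed at 0 is among those kept, so these tallies overstate how stable the calls were. DESeq2 called 2 for A289I against A289V, 2 for A289I against wild-type EGFR and 2 against mCherry, 12 and 5 for A289V, 1 and 3 for R108G, 1 and 3 for R108K, 1 and 3 for R222C, 2 and 3 for T263P, 1 for wild-type EGFR against mCherry, 3 for the receptor mean and 21 for the F-test. edgeR called 0 for A289I and R108K against mCherry, 2 for the receptor mean and 10 for the F-test. TMM rescaling and no filter each gave 0 for R108K against mCherry, and a pseudocount of 0.1 gave 3 for A289V against wild-type EGFR. With the term for library-number range, 13 were called between tumours and cortex, 7 between mCherry and cortex, and 0 against mCherry for the receptor mean, A289I, A289V, R108G and R108K.

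The next settings were chosen after seeing the data. Without A289V 1 and 2, A289V against wild-type EGFR, A289V against mCherry and the F-test gave 0. Without the 3 libraries with high Met, A289I, A289V and R108K against mCherry gave 0. EGFR wild type 3 was then alone in its group and assumed to vary like the others. No count is therefore given for comparisons that use wild-type EGFR, the receptor mean among them. Without the 3 low-Egfr libraries, R108G 2 was alone in its group, so no count is given for R108G against mCherry. Signs turned for Col26a1 in wild-type EGFR against mCherry without high Met (0.0161), Col1a1 in R108G against R108K with the range term (-0.0491) and Col4a5 there without low-Egfr libraries (-0.0876).

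Leaving out 1 library gave 9 to 23 between tumours and cortex, 6 to 14 between mCherry and cortex, 1 to 8 in the F-test, 0 to 5 for A289V against wild-type EGFR and 0 to 3 for A289I against A289V. Against mCherry it gave 0 to 2 for the receptor mean, 0 to 1 for A289I and R108G, 0 to 4 for A289V and 0 to 3 for R108K. Every other comparison gave 0. No paired analysis was possible because the labels give no pairing and no library number in the titles is shared between groups. The numbers that name libraries here only count them within their group. Groups of 2 to 5 libraries, and for Col4a3, Col6a4, Col6a6, Col10a1 and Col17a1 levels near the value of a few reads, limit what these data can show.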
